A study of Arabidopsis thaliana with 18 samples.

Results

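The transcript response of the Arabidopsis thaliana jaz10 mutant to methyl jasmonate (MeJA) was measured as the difference between 2 arrays of MeJA-sprayed plants and 2 arrays of water-sprayed plants, 4 of the 18 arrays in the series. The arrays were assigned to groups by their titles, and 5689 genes entered the comparison. All plants were 4 weeks old, had been grown in short days of 8 h light at 22 °C, and were harvested whole 3 h after a spray with 250 µM MeJA or with water (mock). Each sample was a pool of at least 4 plants. The series also holds wild-type Col-0 (labelled Col, 2 arrays per treatment), the jaz10 phyB-9 double mutant (labelled jaz10phyb, 2 per treatment) and the phyB-9 single mutant (labelled phyb, 3 per treatment), all handled alike. The jaz10 allele is not named in the labels.

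Jasmonates are plant hormones made from membrane lipids after wounding or attack. MeJA is a volatile ester that plants take up and convert to jasmonic acid, and its isoleucine conjugate is the active form. That conjugate brings JAZ proteins, which repress MYC-type transcription factors, to the receptor COI1 for degradation. JAZ10 is one of these repressors and is itself a jasmonate-induced gene with splice forms of differing stability. Phytochrome B, the protein lost in phyB-9, is a red-light receptor whose loss gives shade-avoidance growth in Arabidopsis.

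Signals were linear intensities, and the medians of the 18 arrays lay between 14.87 and 17.5. A score of each array's position between mock and MeJA was taken as the mean of the 851 genes raised minus the mean of the 918 lowered by MeJA in Col, on the log2 scale and centred on all arrays. The Col arrays chose these genes, so their own scores, which form the outer ends of both ranges below, are separated by that choice. Mock arrays scored -0.82 to -0.46 and MeJA arrays 0.25 to 0.87, except the array labelled phyb Control 2 (0.59) and the array labelled phyb MeJA 3 (-0.62), each on the side of the other treatment. Both belong to phyb, which is not compared here, and the model was fitted to the 12 arrays of Col, jaz10 and jaz10phyb. Calls with all 18 arrays, which include phyb Control 2 and phyb MeJA 3, are given beside the results. JAZ10, PHYB, MYC2, LOX2 and VSP2 lacked a named probe set and were not analysed here, which leaves the genotype labels without a check on the mutated genes. Of 6 root, 6 flower and 3 seed markers listed, the root hair gene EXPA7 alone had a named probe set. Its signal of 5.42 to 5.88 in the 4 jaz10 arrays was under the array medians, so the label of whole plants could not be checked for roots.

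After MeJA, 1395 of the 5689 genes (24.5%) changed in jaz10 at an adjusted p under 0.05 (limma, Benjamini-Hochberg over all genes). Of these, 570 (10%) were higher and 825 (14.5%) lower. With all 18 arrays in the fit, 497 genes (8.74%) passed, 251 higher (4.41%) and 246 lower (4.32%), and every one of them was among the 1395. With the 16 arrays left after removing phyb Control 2 and phyb MeJA 3, 1400 genes (24.6%) passed, 581 higher (10.2%) and 819 lower (14.4%). Leaving out jaz10 Control 1, jaz10 MeJA 1 or jaz10 MeJA 2 lowered the count markedly, and leaving out jaz10 Control 2 lowered it little. Each such fit leaves 1 array in a group. Mock and MeJA signals did not overlap for 3555 genes (62.5%), 1401 higher (24.6%) and 2154 lower (37.9%).

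The larger changes were rises, while the balance of rises and falls depended on the setting. Without jaz10 MeJA 1 the split was 453 higher and 440 lower, and by an unadjusted p under 0.05 with at least a 2-fold change it was 223 and 114. In the fit of 12 arrays the median change of the 570 higher genes was 0.86 on the log2 scale and the highest was 4.83. At least a 2-fold rise was seen in 223 (39.1%), at least 4-fold in 76 and at least 8-fold in 19. The median of the 825 lower genes was -0.60 and the lowest -2.53, with at least 2-fold falls in 113 (13.7%), 4-fold falls in 7 and 8-fold falls in 0. Over all 5689 genes the median change was -0.05. Genes that rose had a median mock signal of 79.7 and a median of 159.5 after MeJA, and genes that fell went from 112.5 to 67.8, while all genes went from 97.5 to 95.7. The mock mean was below 50 in 180 of the 570 and in 931 of all genes. The minimum of 50 in any array partly fixes this, since a gene that is low in mock plants could enter through its MeJA arrays. In a bulk plant extract, fewer cells of a type and less RNA per cell cannot be told apart.

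**Figure D1:**
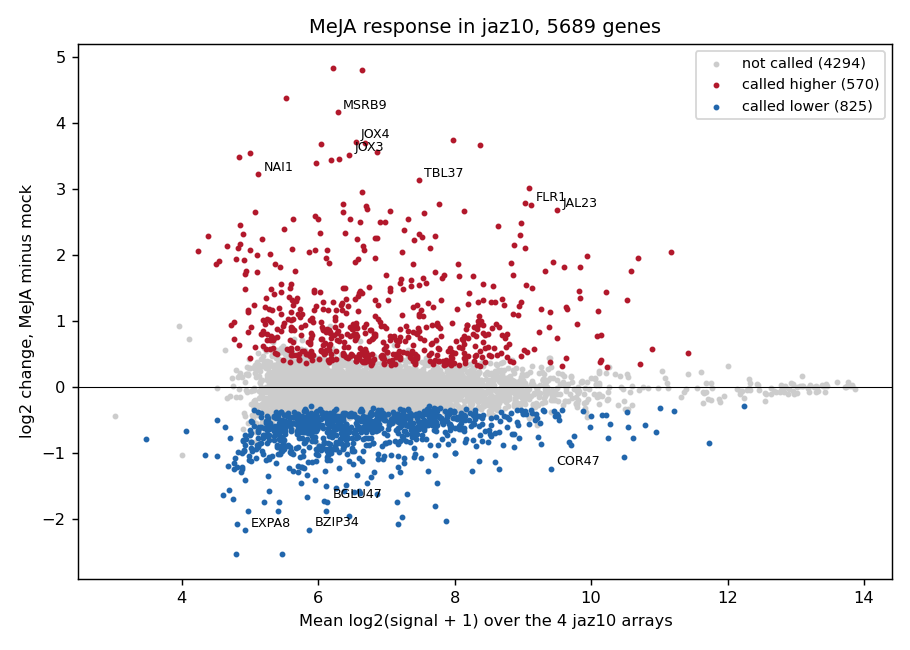
Change after MeJA in jaz10 (vertical axis, log2 MeJA minus mock) against the mean log2(signal + 1) of the 4 jaz10 arrays (horizontal axis), with 1 point per gene and called genes in colour. The 570 rises reach 4.83 and the 825 falls reach -2.53, so the points extend further above 0 than under it.

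The jaz10 replicates were close but not equal. The Pearson correlation across the 5689 genes was 0.982 between both mock arrays and 0.991 between both MeJA arrays, against 0.901 to 0.929 between mock and MeJA arrays (genes are not independent replicates). The median absolute difference was 0.147 on the log2 scale between mock arrays and 0.120 between MeJA arrays. On the score of Col-responsive genes, jaz10 Control 2 stood at -0.51 and jaz10 Control 1 at -0.70. Of the 570 genes that rose, 433 (76%) had a higher signal in Control 2 than in Control 1, against 51.8% of all genes, and of the 825 that fell, 291 (35.3%) did. The part of this difference between mock pools in the results was not tested.

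Genes of jasmonate turnover were among the strongest rises. JOX2, JOX3 and JOX4 encode jasmonate-induced oxygenases that hydroxylate jasmonic acid and so inactivate it, and JMT encodes the methyltransferase that makes MeJA from jasmonic acid. All 4 tested genes of the catabolism and conversion list rose (4 of 4, of 12 listed), with a median change of 3.14, against 24.5% called and a median of -0.05 over all genes. JOX4 (AT2G38240) had signals of 23.4 and 26.4 in the mock arrays and 345 and 332 in the MeJA arrays. Its change was 3.72 ± 0.14 (SE, n = 2 per group), a 13.1-fold rise on the scale of signal plus 1 (limma adjusted p = 3.3e-08, and 0.0205 with 18 arrays). Mock and MeJA arrays lay far apart and each pair was tight. JOX3 (AT3G55970) had signals of 22.2 and 27.5 in mock and 313 and 279 after MeJA, a change of 3.53 ± 0.15. JOX2 (AT5G05600) went from 31.5 and 42.0 to 189 and 186, a change of 2.34 ± 0.13. JMT (AT1G19640) went from 30.4 and 50.7 to 255 and 284, a change of 2.74 ± 0.29. In none of these genes did a mock array reach the lower MeJA array. Only JOX4 passed with all 18 arrays, where the limma adjusted p was 0.0504 for JOX3, 0.0551 for JOX2 and 0.0574 for JMT. All 4 passed with the 16 arrays without phyb Control 2 and phyb MeJA 3.

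Upstream of these genes the tested coverage was thin. OPCL1, a peroxisomal acyl-CoA ligase of jasmonate synthesis, had signals of 461 and 652 in mock and 1521 and 1495 after MeJA. It rose by 1.46 ± 0.15 (limma adjusted p = 2.7e-05). AIM1, a multifunctional protein of fatty acid β-oxidation, had a change of -0.18 ± 0.11 and was not called. These were the 2 tested genes of 20 listed for jasmonate synthesis. Of the receptor, repressor and transcription factor list, 2 of 25 genes were tested. MYC3, a transcription factor that JAZ proteins bind, rose from 245 and 287 to 477 and 443, by 0.79 ± 0.12. Its close relative MYC4 had signals of 44.0 and 38.3 in mock and 35.4 and 40.6 after MeJA, which overlap, with a change of -0.11 ± 0.16. OPCL1 and MYC3 passed with all 18 arrays as well.

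The largest rises among genes with a symbol were taken from called genes whose mock and MeJA arrays do not overlap. They included enzymes of redox repair and wall polysaccharides, and a ligase-like enzyme. MSRB9, a methionine sulfoxide reductase, had signals of 16.5 and 18.4 in mock and 314 and 346 after MeJA. Its change was 4.17 ± 0.15, a 17.9-fold rise (limma adjusted p = 3.3e-08, and 0.0281 with 18 arrays). Its relative MSRB6 rose from 56.6 and 75.2 to 355 and 421, by 2.55 ± 0.18. Both genes were clearly separated between treatments. 4CL8, a 4-coumarate:CoA ligase-like enzyme, had mock signals of 42.5 and 109 and MeJA signals of 946 and 908, a change of 3.75 ± 0.33. CSLA01, a member of the cellulose synthase-like A family of mannan synthases, had mock signals of 50.5 and 165 and MeJA signals of 1157 and 1196, a change of 3.67 ± 0.37. The mock pools of these 2 genes differed widely, and the lower value was in Control 1 each time. Without Control 1 the change of 4CL8 was 3.08 and that of CSLA01 2.83, and without Control 2 they were 4.41 and 4.51, so each call held but the fold moved by over 1.5 times.

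TBL37, of a family of wall polysaccharide acetyltransferases, rose from 52.2 and 67.0 to 553 and 505, by 3.14 ± 0.14. IRX15-L, a protein needed for xylan deposition, rose from 56.0 and 77.8 to 350 and 347, by 2.38 ± 0.17. FLR1, a leucine-rich repeat protein, rose from 162 and 276 to 1496 and 1404, by 2.77 ± 0.21. In each of the 3 genes the MeJA arrays differed less than the mock arrays on the log2 scale. JAL23, a jacalin-related lectin, went from 230 and 352 to 1896 and 1765, a change of 2.68 ± 0.23. CYP71B37, a cytochrome P450, went from 40.7 and 29.6 to 302 and 254, a change of 2.96 ± 0.24. It was 1 of 2 among the 14 largest rises with a symbol in which the mock signal was lower in Control 2 than in Control 1. All 14 passed in each fit that left out 1 jaz10 array and in the fit of 16 arrays without the 2 doubted phyb arrays, and 6 of the 14 passed with all 18. In 7 of the 14 the mock mean was below 50, so their folds start from low signals.

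The largest rises among genes without a symbol exceeded these. AT1G76640, for which the reference table gives the synonym CML39 (calmodulin-like), had signals of 14.3 and 11.8 in mock and 385 and 408 after MeJA. Its change of 4.83 ± 0.21 (28.5-fold on the signal plus 1 scale) was the largest of the 5689 genes. AT1G54020 went from 12.5 and 25.6 to 512 and 550, a change of 4.81 ± 0.29. AT4G11911 went from 5.72 and 14.03 to 210 and 209, a change of 4.39 ± 0.33. Mock signals of all 3 were at most 25.6, and all 3 passed with 18 arrays (limma adjusted p from 0.0383 to 0.0481).

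**Figure D2:**
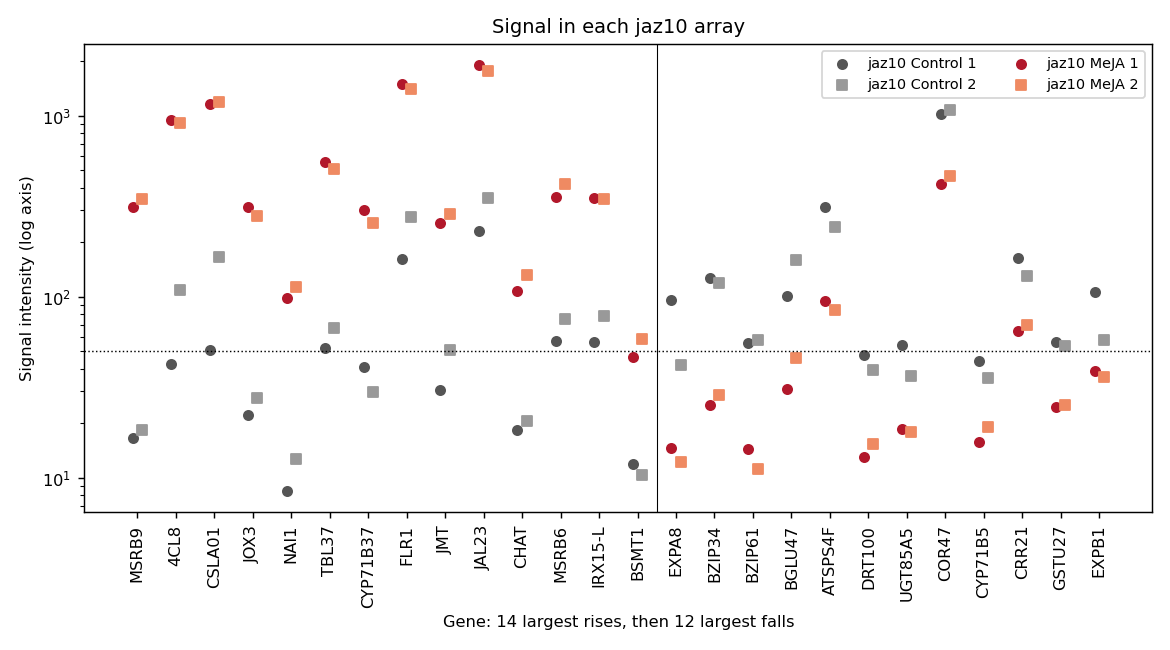
Signal intensity (log axis) of the 14 largest rises and the 12 largest falls among called genes with a symbol whose mock and MeJA arrays do not overlap. Each of the 4 jaz10 arrays has 1 point, and a dotted line marks the minimum of 50. Mock and MeJA arrays separate in all 26 genes because of this choice, and the mock arrays of 4CL8, CSLA01 and EXPA8 lie furthest apart.

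Defence outputs of jasmonate split into 2 groups. Genes of endoplasmic reticulum bodies and of leaf volatiles rose, while the defensin and thionin genes that were tested did not pass. In all, 5 of 8 tested genes rose (of 25 listed), with a median of 1.49, against 10% higher over all genes. Of the 5, 0 passed with all 18 arrays, and 5 passed with the 16 arrays without phyb Control 2 and phyb MeJA 3. NAI1, the transcription factor needed for endoplasmic reticulum bodies, rose from 8.44 and 12.7 to 97.9 and 113, by 3.22 ± 0.20 (limma adjusted p = 6.4e-07, and 0.0503 with 18 arrays). NAI2, a protein of these bodies, rose from 439 and 543 to 1758 and 1684, by 1.82 ± 0.14. PYK10, their β-glucosidase, named here after its values were seen, rose from 706 and 771 to 1631 and 1655, by 1.15 ± 0.12. NAI2 and PYK10 are proteins of these bodies, while NAI1 is a transcription factor needed for them. In each of the 3 genes the MeJA arrays lay above the mock arrays without overlap, as in 24.6% of all genes. CHAT, which makes the green leaf volatile hexenyl acetate, rose from 18.2 and 20.6 to 108 and 131, by 2.55 ± 0.12. BSMT1, which makes methyl salicylate and methyl benzoate, rose from 11.9 and 10.3 to 46.3 and 58.6, by 2.14 ± 0.16.

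PDF1.2a, a defensin that responds to jasmonate together with ethylene, had signals of 62.0 and 97.0 in mock and 81.0 and 84.9 after MeJA. The MeJA values lay between the mock values, and the change was 0.10 ± 0.44 (limma adjusted p = 0.905). In Col the same gene had 37.1 and 17.5 in mock and 116 and 66.0 after MeJA, a change of 1.74 ± 0.44 that was called. The difference of -1.64 ± 0.63 between both responses had an unadjusted p of 0.0228 and an adjusted p of 0.363, and so did not pass. PDF1.2b had a change of 0.05 ± 0.40 and the thionin THI2.2 one of 0.04 ± 0.16. PDF1.2a and PDF1.2b are close copies, and whether their probes tell them apart was not tested.

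Of the indole pathway, IGPS, the tryptophan synthesis enzyme indole-3-glycerol phosphate synthase, had signals of 194 and 249 in mock and 617 and 667 after MeJA. It rose by 1.54 ± 0.15 (limma adjusted p = 1.9e-05). UGT74B1, the glucosyltransferase of core glucosinolate synthesis, went from 261 and 311 to 351 and 374, by 0.35 ± 0.11, while UGT74C1 of the same step had a change of -0.04 ± 0.12. These 3 were tested of 31 listed, and 2 of them were called higher, against 10% of all genes. Neither call was made with all 18 arrays, and both were with the 16 arrays without phyb Control 2 and phyb MeJA 3. The UGT74B1 call was lost without Control 1 and without either MeJA array. Both tested genes of sulphate assimilation (of 12 listed) rose, against 10% higher over all genes. So few tested genes do not describe either list as a whole. APS3, an ATP sulfurylase, went from 191 and 245 to 346 and 370, by 0.72 ± 0.13, and SIR, the sulphite reductase, from 1363 and 1762 to 2274 and 2392, by 0.59 ± 0.12. APS3 passed with all 18 arrays and SIR did not.

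Of the anthocyanin and flavonoid genes, 4 of 5 tested rose (of 21 listed), with a median of 0.95, against 10% higher over all genes. DFR, dihydroflavonol reductase, had signals of 197 and 285 in mock and 587 and 575 after MeJA. It rose by 1.29 ± 0.20 (limma adjusted p = 0.00062, and 0.0395 with 18 arrays). The other 3 encode enzymes that decorate anthocyanins, and signals were low in UGT79B1 and UGT75C1. UGT79B1, an anthocyanin xylosyltransferase, rose from 14.9 and 16.7 to 53.9 and 54.7, by 1.72 ± 0.21. UGT75C1, a glucosyltransferase, rose from 24.2 and 27.4 to 48.8 and 52.8, by 0.95 ± 0.22. AT3AT1, a coumaroyltransferase, rose from 58.2 and 91.6 to 162 and 119, by 0.92 ± 0.23. Its 2 MeJA arrays differed by more than those of the other members. The fifth gene, the malonyltransferase AT5MAT (named after its values were seen), had a change of 0.60 ± 0.24 and did not pass (limma adjusted p = 0.0889). DFR, UGT79B1 and UGT75C1 passed with all 18 arrays. UGT75C1 lost its call without Control 1 or MeJA 2, and AT3AT1 without Control 1 or MeJA 1.

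Among called genes with a symbol whose mock and MeJA arrays do not overlap, the largest falls were in a wall-loosening gene and a pair of related transcription factors. EXPA8, an expansin, had signals of 96.0 and 41.9 in mock and 14.6 and 12.3 after MeJA. Its change was -2.16 ± 0.33 (limma adjusted p = 0.00050, and 0.160 with 18 arrays), and it was -1.58 without Control 1 and -2.75 without Control 2. BZIP34 (AT2G42380), a bZIP transcription factor, fell from 127 and 118 to 25.1 and 28.6, a change of -2.16 ± 0.20. Its close relative BZIP61 fell from 55.2 and 57.6 to 14.4 and 11.1, a change of -2.07 ± 0.21. In both the mock arrays nearly coincided, and both passed with 18 arrays. BGLU47, a β-glucosidase, fell from 101 and 159 to 30.9 and 45.6, a change of -1.73 ± 0.23. ATSPS4F, a sucrose phosphate synthase, fell from 314 and 242 to 94.3 and 83.8, a change of -1.62 ± 0.17. COR47, a dehydrin, was the brightest of the 12 falls, at 1017 and 1069 in mock and 421 and 465 after MeJA, a change of -1.24 ± 0.12. The others were DRT100 (-1.55), UGT85A5 (-1.24), CYP71B5 (-1.14), CRR21, a pentatricopeptide protein of chloroplast RNA editing (-1.11), the glutathione transferase GSTU27 (-1.10) and the β-expansin EXPB1 (-1.04). Of the 12, 9 ended below a mean signal of 50, 7 passed with all 18 arrays, and EXPB1 alone lost its call when an array was left out (Control 1 or MeJA 2, highest limma adjusted p = 0.0749).

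Among genes without a symbol, AT5G19190 fell most, from 111 and 101 to 15.7 and 19.3, a change of -2.53 ± 0.21. AT1G65490 fell from 68.8 and 62.4 to 10.96 and 10.3, a change of -2.52 ± 0.18. AT5G41900 (-2.07 ± 0.16) and AT1G29660 (-2.02 ± 0.15) started from brighter mock signals, 295 and 296 for the former and 447 and 497 for the latter. These 4 genes were chosen among those whose mock and MeJA arrays do not overlap, and all except AT5G19190 passed with 18 arrays.

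All 4 tested genes of the wall-loosening list fell (of 17 listed), with a median of -0.85, against 14.5% lower over all genes. With all 18 arrays none of the 4 was called. Besides EXPA8 and EXPB1, EXPB3 fell from 246 and 290 to 171 and 166, a change of -0.66 ± 0.14. EXPA4 fell from 79.3 and 95.8 to 57.1 and 59.0, a change of -0.58 ± 0.16, and this call was lost without Control 2 or either MeJA array. All 4 encode expansins. Neither tested gene of auxin and shade response passed, with changes of -0.44 ± 0.20 in IAA29 and -0.19 ± 0.17 in HAT2.

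Of the photosynthesis genes encoded in the nucleus, 3 of 6 tested fell (of 40 listed), with a median of -0.34, against 14.5% lower and a median of -0.05 over all genes. LHB1B2 (-0.33) did not pass, nor did LHCB4.1 (-0.07) and RCA (-0.09), both named after their values were seen. PRK, phosphoribulokinase, had signals of 868 and 689 in mock and 469 and 445 after MeJA, a change of -0.76 ± 0.17. SBPASE fell from 2845 and 2537 to 2040 and 2158, by 0.36 on the log2 scale, and the antenna gene LHCB4.2 from 223 and 218 to 159 and 173, by 0.41. These calls did not hold in every fit. None was made with 18 arrays, 2 genes of the list were called with 16, PRK lost its call without Control 1, SBPASE without Control 1 or either MeJA array, and LHCB4.2 without any of the 4. PORB, a protochlorophyllide oxidoreductase of chlorophyll synthesis, fell from 2092 and 2242 to 1464 and 1446, a change of -0.57 ± 0.10 (limma adjusted p = 0.0011, and 0.124 with 18 arrays), while CHLM (-0.23 ± 0.13) did not pass.

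Genes encoded in the plastid genome gave no call. Of 63 tested, 0 passed in limma, 1 had an unadjusted p under 0.05, and their changes ran from -0.30 to 0.33 around a median of -0.01. Their mock means were high, from 1069 to 15137. Arrays did not overlap in 30 of them, against 62.5% of all genes. The reference gene TIP41L had a change of -0.22 ± 0.13 and did not pass.

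Of the dehydration-responsive genes, 3 of 5 tested fell (of 20 listed), with a median of -0.66, against 14.5% lower over all genes. COR15B, a chloroplast protein of cold acclimation, had signals of 713 and 974 in mock and 468 and 449 after MeJA, a change of -0.86 ± 0.14. LTI30, a dehydrin, fell from 18.2 and 22.2 to 11.6 and 13.1, a change of -0.66 ± 0.21. LTI30 had low signals in all 4 arrays, and its call was lost without any 1 of them. COR15A (-0.23 ± 0.11) and KIN2 (-0.03 ± 0.12, named after its values were seen) did not pass. COR47 and COR15B passed with all 18 arrays. GI, a clock gene and the only clock member tested (of 12 listed), fell from 575 and 588 to 347 and 367, a change of -0.70 ± 0.10 (limma adjusted p = 0.00024, and 0.0544 with 18 arrays).

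Families grouped by gene symbol differed in the share of members that moved, beside 24.5% of all genes. Of 16 genes with a UGT symbol (UDP-glycosyltransferases) in the reference table, 6 rose and 2 fell, and of these UGT76E12 alone passed with all 18 arrays. UGT79B1, UGT75C1 and UGT74C1, described above, have no UGT symbol there and are not among the 16. UGT76E12 rose from 7.19 and 9.51 to 39.0 and 36.4, by 2.06 ± 0.20, and the related UGT76E11 rose by 0.91 ± 0.14. UGT71B1 rose by 0.93 ± 0.16. Of 10 TBL genes, 4 rose and 0 fell, and TBL37 and TBL45 passed with all 18 arrays. TBL26 rose from 595 and 1171 to 2749 and 2948, by 1.77 ± 0.24, and TBL45 by 0.62 and TBL28 by 0.43. TBL45 lost its call without Control 1 or MeJA 1, and TBL28 without any 1 array.

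Sugar transporters of the SWEET family moved both ways, with 3 rises and 1 fall in 7, of which SWEET16 alone passed with all 18 arrays. SWEET16, a vacuolar membrane sugar transporter, rose from 65.7 and 91.7 to 209 and 238, by 1.51 ± 0.18. SWEET17, also of the vacuolar membrane, rose from 187 and 242 to 352 and 382, by 0.78 ± 0.16. SWEET4 rose by 0.86 ± 0.21, and SWEET13, a plasma membrane sucrose transporter, fell from 52.8 and 61.1 to 32.1 and 34.4, a change of -0.76 ± 0.18. SWEET4 lost its call without Control 1 or MeJA 2, and SWEET13 without Control 2 or MeJA 1. Of 13 serine carboxypeptidase-like genes (SCPL symbols), 6 fell, 2 rose and 5 did not pass, and with all 18 arrays scpl42 alone was called. SCPL34 fell from 118 and 107 to 66.6 and 54.6, a change of -0.89 ± 0.12, and scpl42 changed by -0.77 ± 0.14. The rise of scpl46, 0.75 ± 0.17, was lost without Control 1 or MeJA 1.

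Aldehyde dehydrogenases gave 1 rise and 4 falls among 8, and 2 of the 5 calls held with all 18 arrays, in ALDH2C4 and ALDH22A1 (named after its values were seen). ALDH2C4, an enzyme of ferulate and sinapate formation, fell from 691 and 779 to 507 and 504, a change of -0.54 ± 0.12. ALDH7B4 rose from 165 and 170 to 271 and 214, by 0.52 ± 0.13, a call that was lost without Control 1 or MeJA 1. β-Glucosidase genes with a BGLU symbol gave 2 rises and 3 falls among 7, and BGLU16, BGLU40 and BGLU47 passed with all 18 arrays. The β-glucosidase PYK10, which rose as given above, is not among the 7. BGLU16 rose from 50.0 and 50.4 to 121 and 109, by 1.17 ± 0.23, while BGLU40 fell from 225 and 239 to 111 and 134, a change of -0.92 ± 0.14. BGLU44 changed by -0.67 ± 0.15, and its call was lost without MeJA 2.

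Genes with CYP symbols gave 1 rise and 3 falls among 11, of which CYP59 and CYP71 are cyclophilins and the rest cytochromes P450. CYP71B37 and CYP71B26 passed with all 18 arrays. Of the genes near CYP71B37 on chromosome 3, only CYP71B26, CYP71B34 and CYP71B35 were looked at, and none of them was called higher. CYP71B26 went from 93.2 and 128 to 67.0 and 71.7, a change of -0.65 ± 0.17 that was lost without Control 2 or either MeJA array. CYP71B34 (-0.48 ± 0.19) and CYP71B35 (-0.06 ± 0.20), named after their values were seen, did not pass. These genes are related in sequence, and cross-hybridisation between them was not tested. No member was called in the families SEC (9 genes), NAD (8), LSM (5) or CCB (5) with limma, and 1 of 8 IQD genes was, IQD22, which rose from 47.2 and 57.3 to 95.3 and 95.6 and passed with all 18 arrays.

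**Figure D3:**
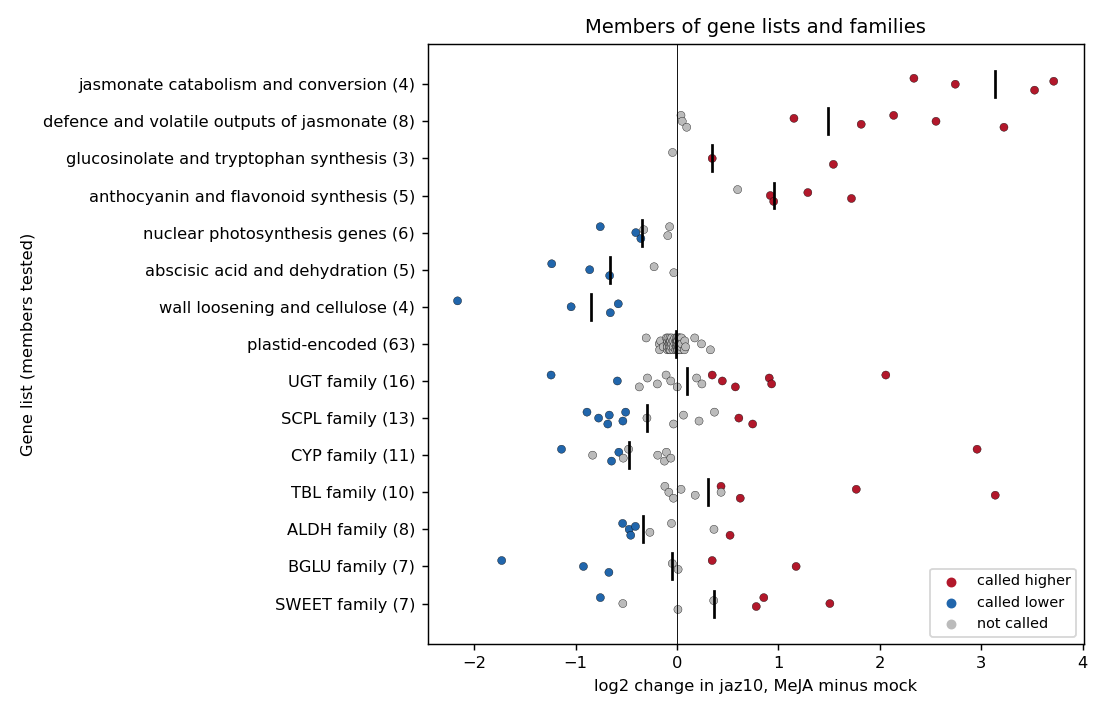
Change after MeJA in jaz10 (log2 MeJA minus mock) for each tested member of the gene lists and symbol families, with 1 point per gene and a black bar at the median. Jasmonate catabolism (median 3.14) and the wall-loosening list (median -0.85) lie wholly on opposite sides of 0, and the 63 plastid-encoded genes lie within -0.30 to 0.33.

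The design asks whether the response depends on JAZ10, for which the jaz10 response was set beside that of Col. MeJA changed 1769 genes in Col (31.1%), 851 higher (15%) and 918 lower (16.1%), against 1395 in jaz10, and the 2 comparisons share no array. Across the 5689 genes the changes correlated with a Pearson r of 0.874 and a Spearman rho of 0.739, given as a description because genes are not independent and one annotation and array type serve both. Of the 570 genes raised in jaz10, 552 (96.8%) had the same sign in Col, where 47.4% of all genes were positive, and 464 were also called higher there, 81.4% of the jaz10 list and 54.5% of the Col list. Of the 825 lowered in jaz10, 788 (95.5%) had the same sign, against 52.6% of all genes negative in Col, and 567 were called, 68.7% of the jaz10 list and 61.8% of the Col list. Only 2 of the genes raised and 3 of those lowered in jaz10 were called the opposite way in Col.

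The sizes depended on which genotype chose the genes. Genes raised in jaz10 had a median of 0.86 there and 0.84 in Col, whereas genes raised in Col had a median of 0.68 there and 0.47 in jaz10, with 24.2% of them larger in jaz10. Genes lowered in jaz10 had -0.60 there and -0.53 in Col, and genes lowered in Col -0.58 there and -0.49 in jaz10. A test of the difference between responses called 0 genes (limma, 609 with an unadjusted p under 0.05, 10.7%), and 0 with all 18 arrays, where 331 (5.82%) had an unadjusted p under 0.05. With a spread that follows signal and is robust to outliers, the same test called 13 genes. The same genes in mock plants gave 0 calls between jaz10 and Col, with 337 at an unadjusted p under 0.05 (5.92%).

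The 4 lowest p-values of that difference were in AT1G25520, AT4G13180, AT5G55960 and AT5G22480, none of which passed (limma adjusted p = 0.133 for each). AT1G25520 had signals of 41.5 and 35.9 in mock and 29.2 and 30.2 after MeJA in jaz10, against 28.9 and 29.3 in mock and 42.8 and 50.5 after MeJA in Col. It fell by 0.37 in jaz10 and rose by 0.66 in Col on the log2 scale. AT4G13180 had a change of 0.50 in jaz10 and 1.79 in Col. AT5G55960 had -0.47 against 0.52, and AT5G22480 had -0.21 against 0.99. The jaz10 calls of AT1G25520 and AT4G13180 were lost without Control 1 or either MeJA array, and that of AT5G55960 without Control 1 or MeJA 1.

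Among genes called in jaz10 with a symbol, the 5 whose changes differed most from Col also stayed short of the threshold (limma adjusted p from 0.216 to 0.260). EXPA8 changed by -2.16 in jaz10 and by -3.72 in Col, where it went from 132 and 158 to 8.20 and 12.3. CYP71B37 changed by 2.96 in jaz10 and by 1.86 in Col, where it went from 44.6 and 32.5 to 117 and 170. EXPA16, an expansin, had signals of 178 and 238 in mock and 117 and 118 after MeJA in jaz10, a change of -0.81 ± 0.16, against 0.23 ± 0.16 in Col. UGT79B1 changed by 1.72 in jaz10 and 0.75 in Col, and SWEET4 by 0.86 and 1.85. All 26 of the largest rises and falls with a symbol in jaz10 were called in Col in the same direction.

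List medians differed between the genotypes for some lists, with no call for the difference of any member. The anthocyanin list had a median of 0.95 in jaz10 with 4 of 5 called, and 0.65 in Col with 3 of 5. The dehydration list had a median of -0.66 in jaz10 with 3 of 5 lower, and 0.14 in Col with 1 of 5 lower. COR15B changed by -0.86 in jaz10 and -0.14 in Col, and LTI30 by -0.66 and 0.24. APS3 changed by 0.72 in jaz10 and by 0.29, not called, in Col. The adjusted p of the difference was 0.260 for COR15B, 0.308 for LTI30 and 0.416 for APS3 (limma). The catabolism list had 3.14 in jaz10 and 3.36 in Col, with all 4 genes raised in both.

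**Figure D4:**
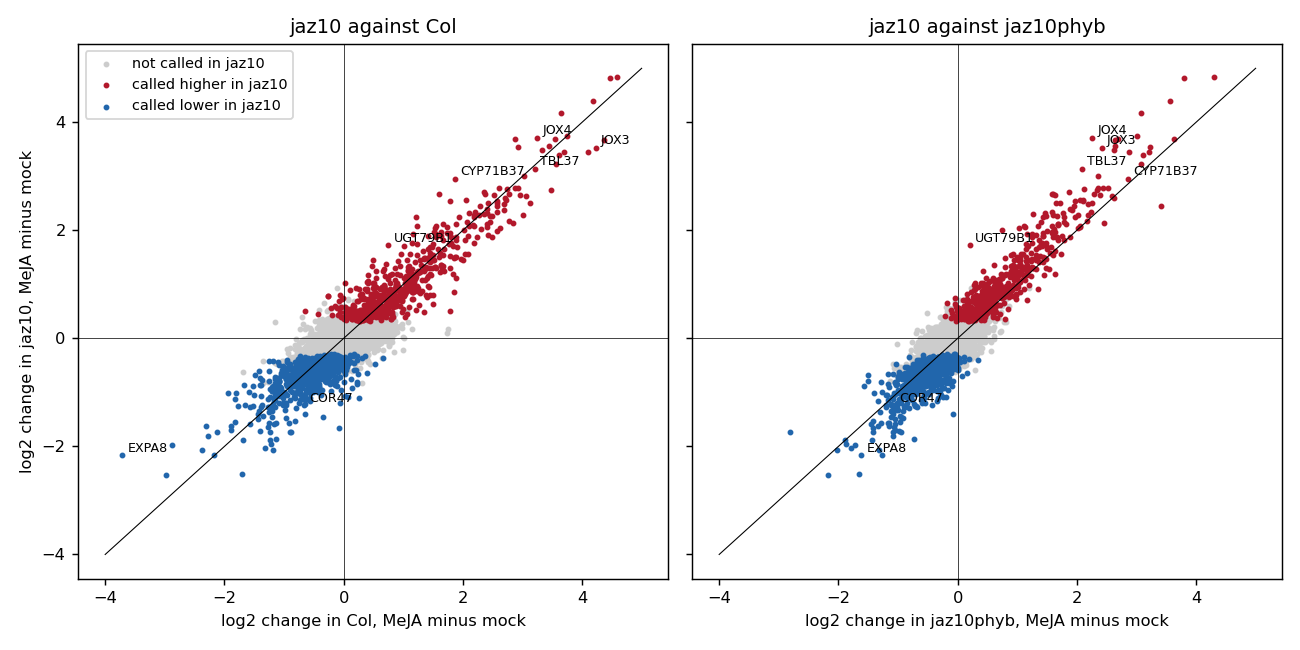
Change after MeJA in jaz10 (vertical axis, log2 MeJA minus mock) against the change in Col (left) and in jaz10phyb (right), with 1 point per gene, genes called in jaz10 in colour and a line of equality. Called genes keep their sign in Col for 552 of 570 rises and 788 of 825 falls, and 501 of the 570 rises lie above the line against jaz10phyb.

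Most genes raised in jaz10 had a larger estimated rise there than in the jaz10phyb double mutant, although no single gene passed the test of the difference. MeJA changed 1074 genes in jaz10phyb (18.9%), 422 higher (7.42%) and 652 lower (11.5%), again with no array shared. The correlation of changes across genes was 0.906 (Pearson) and 0.782 (Spearman). Of the 570 genes raised in jaz10, 556 (97.5%) had the same sign in jaz10phyb, where 37.4% of all genes were positive, and 379 were called, 66.5% of the jaz10 list and 89.8% of the jaz10phyb list. Their median was 0.86 in jaz10 and 0.62 in jaz10phyb, and 501 (87.9%) were larger in jaz10. With the genes chosen in jaz10phyb instead, the 422 raised there had a median of 0.87 there and 1.03 in jaz10, and 310 (73.5%) were larger in jaz10. For falls the order depended on the choice: genes lowered in jaz10 had -0.60 against -0.48, and genes lowered in jaz10phyb had -0.61 there and -0.57 in jaz10, with 44% of them larger in jaz10.

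The difference test between jaz10 and jaz10phyb called 0 genes in limma, with 291 at an unadjusted p under 0.05 (5.12%), and 0 with all 18 arrays, with 138 (2.43%). JOX4 came nearest, with a difference of 1.46 ± 0.19 (unadjusted p = 9.7e-06, adjusted p = 0.0552). Its mock signals were 36.9 and 28.0 in jaz10phyb and its MeJA signals 144 and 171, against 345 and 332 after MeJA in jaz10. Next were TBL37 (1.06 ± 0.19), JOX3 (1.11 ± 0.21) and AT4G32480 (0.92 ± 0.17), each with an adjusted p of 0.239. TBL37 had mock signals of 98.4 and 97.5 and MeJA signals of 409 and 425 in jaz10phyb, and JOX3 had 46.3 and 34.3 in mock and 215 and 220 after MeJA. In JOX4, TBL37 and JOX3 the mock signals of jaz10phyb were above those of jaz10, and the MeJA signals below. UGT79B1 rose in jaz10 and stayed between 9.57 and 17.5 in the 4 jaz10phyb arrays, with a change of 0.20 there and an adjusted p of 0.239 for the difference.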

How the data were processed

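RNA of whole plants was hybridised to single-colour Affymetrix Arabidopsis Gene ST arrays. The deposited values are linear signal intensity per probe set, which the authors made, per the submitters' processing notes, in Affymetrix Expression Console. How probes were summarised, the version and the build are not stated in those sources. Values on a linear scale were taken as such from their range. Of 38408 probe sets, a platform annotation paired 16722 with 1 gene, 759 with several and 20927 with none, and a reference table of the TAIR10.1 assembly matched 16574, for names only. The names JOX2, JOX4, UGT75C1, AT3AT1, IGPS, UGT74C1 and TIP41L come from the lists written for this work and are matched by locus, and JOX3 and UGT79B1 are listed as JRG21 and UF3GT in the reference table.

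Each gene was represented by its brightest probe set on average, among those reaching a signal of 50 in an array, giving 5689 genes, 854 with a symbol. A limma model (limma 3.58.1, R 4.3.3) with a mean per group was fitted to log2(deposited intensity + 1) of the 12 Col, jaz10 and jaz10phyb arrays, with 6 residual degrees of freedom and Benjamini-Hochberg adjustment over all genes. Calls are at an adjusted p under 0.05, and changes of low genes are understated on this scale. Separate cultivation of the pools is not stated, and the p-values then reflect only how these pools vary, which may be technical. The number of arrays, 2 per group, limits the precision.

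The members, the 19 gene lists, the choice of arrays and the tests were chosen with earlier results of these data known. Named probe sets existed for 60 of 314 listed genes, and 47 entered the tests. Of the salicylate defence and cell division lists no gene was tested. Genes named are 9 jasmonate and mutant genes where tested, the 14 largest rises and 12 largest falls with a symbol whose groups do not overlap, the 4 largest of each without one, up to 4 members of each list and symbol family of at least 5 genes, the 4 lowest p-values of each difference in response, and the 5 that differ most from Col. Alternatives were all 18 arrays, 16 arrays, other filters, pseudocounts and scalings, other spread estimates, a replicate block, and each array left out.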

Additional observations from a re-analysis of the deposited data

Results flagged for a closer look

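Probe sets that the platform annotation pairs with several genes or with none were outside the comparison of 5689 genes. Fitted in the same way to the 12 arrays, 8712 of them passed the minimum signal, and 1430 (16.4%) were called by limma after MeJA in jaz10, 631 higher and 799 lower. The largest rise was 5.38 and the largest fall -2.65 on the log2 scale, both beyond the largest changes among the named genes. These probe sets are unnamed here rather than without a gene.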

How the results depend on the processing

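The count of 1395 genes changed by MeJA in jaz10 was 497 with all 18 arrays, 2585 of 14444 with all probe sets kept, 337 with an unadjusted p under 0.05 and at least a 2-fold change, and 832 to 1388 with each array left out, where the lone array of a group is assumed to vary like the other groups. Under the other settings it lay between 1094 (no filter) and 1514 (trend and robust spread estimate). The main fit did not pair samples by replicate number, and whether equal numbers belong together is not known. Deviations of the jaz10 mock and MeJA arrays correlated at -0.02. Of 15 pairs of groups 2 passed 0.1, with 0.23 between Col MeJA and jaz10 mock. A fit with the replicate block gave 1442 genes, 1368 of them shared. Of 152 named genes none reversed, 53 lost their call with 18 arrays and 3 lost it with 16 arrays. The difference from Col called 13 genes with the trend and robust estimate, 27 by unadjusted p and 2-fold, and 0 to 1 with an array left out (CSLA01 without jaz10 Control 1). The 13 included EXPA16, AT4G13180, AT5G55960 and AT5G22480, and the metallothionein MT1C (difference -1.58, adjusted p = 0.0255 in limma). The difference from jaz10phyb called 1 gene, JOX4, with a minimum of 100, a pseudocount of 16 or quantile normalization, 2 (JOX4 and TBL37) with trend and robust estimates, 14 by unadjusted p and 2-fold, and 0 to 1 with an array left out (JOX4, CSLA01 or UGT79B1). List medians moved with the pseudocount of 16: 2.65 for jasmonate catabolism, 1.23 for defence outputs, 0.80 for anthocyanins and -0.35 for dehydration. With a minimum of 100 the anthocyanin median was 1.11 and the dehydration median -0.54, and with quantile normalization they were 1.03 and -0.58. With each array left out, medians ran from 2.88 to 3.39 for catabolism, 1.38 to 1.59 for defence, 0.22 to 0.47 for glucosinolates, 0.87 to 1.24 for anthocyanins and -0.80 to -0.53 for dehydration. The cause of these shifts was not tested, beyond the smaller numbers of arrays, genes or probe sets that some settings use. Signals below 50 limit the folds of 7 of the 14 largest rises and 9 of the 12 largest falls.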
